A study of Homo sapiens with 4 samples.

Results

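The genes described are the cadherins and protocadherins, cell-surface adhesion proteins whose symbols begin with CDH, CDHR, PCDH, FAT or DCHS followed by the number of the family member. By that symbol rule 99 of the 35979 gene symbols in the deposited tables were members, and the rule used no measured value. PCDH11X, whose symbol ends in a letter, falls outside it. RNA selected for poly(A) tails was sequenced in 4 libraries of NCI-H1048, a cell line established from a human small cell lung cancer with tuft cell features. All cells had received a guide RNA (gRNA): 2 libraries had different guides against COLCA2 (labelled COLCA2 knockout), 1 had a guide against POU2F3 (labelled POU2F3 knockout) and 1, called the control here, had a non-targeting guide (labelled WT). POU2F3 is the transcription factor that defines tuft cells, and COLCA2 encodes a co-activator that works with it. Whether the cells were pools or clones, and how long after delivery of the guide they were taken, is not given in the sources used here.

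Cadherins hold cells together through calcium-dependent contacts between their extracellular domains. In epithelia the type I cadherins CDH1 and CDH3 build adherens junctions, where β-catenin and α-catenin link them to actin, while CDH2 is the type I cadherin of neural and mesenchymal tissue. Fat and Dachsous proteins are giant cadherins that act in planar cell polarity. Protocadherins lack the catenin-binding tail, and those in the PCDHA, PCDHB and PCDHG clusters are known for the choice of different promoters in different neurons.

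The libraries held between 21587741 and 29632382 reads on genes. With the POU2F3 guide, the normalized count of POU2F3 was 1449 against 14602 in the control, and it was 3677 and 2351 with COLCA2 gRNA 1 and 2. COLCA2 itself was at 5585 in the control, 3119 and 3541 with its own guides 1 and 2, and 1393 with the POU2F3 guide. Of 7 tuft markers 6 passed the expression minimum below, and TRPM5 was at 2.35 or less in every library. The tuft list, POU2F3 included, summed to 40672 in the control, 9671 with the POU2F3 guide and 14154 and 10460 with the COLCA2 guides. Of 5 neuroendocrine markers 2 passed. INSM1 was at 118 in the control and between 23.8 and 35.3 in the others, SYP was between 48.2 and 74.5, and CHGA was at 2.52 or less; the list summed to 198 in the control and to between 90.6 and 94.8 in the others. No leukocyte marker of 4 passed, and of 4 endothelial markers KDR was at 0, CDH5 at 8.23 or less, PECAM1 between 22.0 and 25.2, and VWF at 43.9 in the control and between 15.9 and 21.2 in the others. Levels of a gene in bulk RNA do not separate fewer expressing cells from less RNA per cell.

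A gene was followed when its normalized count averaged at least 20 over the 4 libraries, and 66 members passed. The other 33 members never exceeded 34 reads in a library, and CDH16 and PCDHA14 were listed at 0 throughout. Each ratio was taken between log2(normalized count + 1) values, so that changes of low genes are understated, and a gene was called where it was at least 2-fold from the control. A COLCA2 call needed this with each of its guides. The 2-fold calls carry no test, since there was 1 non-targeting and 1 POU2F3 library, and every ratio to the non-targeting library shares that control. Nothing states that the COLCA2 libraries came from separate cultures. Intervals given in log2 units are exact (Clopper-Pearson, 95%), compare the reads of 2 libraries, and cover counting error only.

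With the POU2F3 guide 13 of the 66 members were higher, where 6.73% of all 14940 genes were, and 5 were lower, where 3.05% of all genes were. With both COLCA2 guides 8 members were higher (background 5.79%) and 5 were lower (background 2.02%). Of the 13 and 8 higher members 7 were the same genes, and of the 5 and 5 lower members 4 were the same genes. The comparisons share the control library, and over all genes 731 of 1005 and 865 higher genes and 224 of 455 and 302 lower genes were the same. The expression minimum is a mean over all libraries, so a gene can pass it only through the libraries where it is high. Among the shared members CDH11 (normalized count 10.5) and PCDHAC1 (8.59) lay below the minimum in the control. PCDH10 lay below it with the POU2F3 guide (9.23) and with COLCA2 gRNA 1 and 2 (16.6 and 3.53). The same minimum applied to all genes. The median log2 ratio of the 66 members was 0.41 with the POU2F3 guide, beside -0.0037 over all genes. With COLCA2 gRNA 1 and 2 it was 0.077 and 0.079, and for the mean ratio of both guides it was 0.071, beside -0.0086 over all genes. Scaling the libraries to equal totals left 5 members higher with both COLCA2 guides, without CDH2, CDH3 and PCDHGC3, which lay close to the 2-fold line. The share of all genes was not computed with equal totals.

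**Figure D1:**
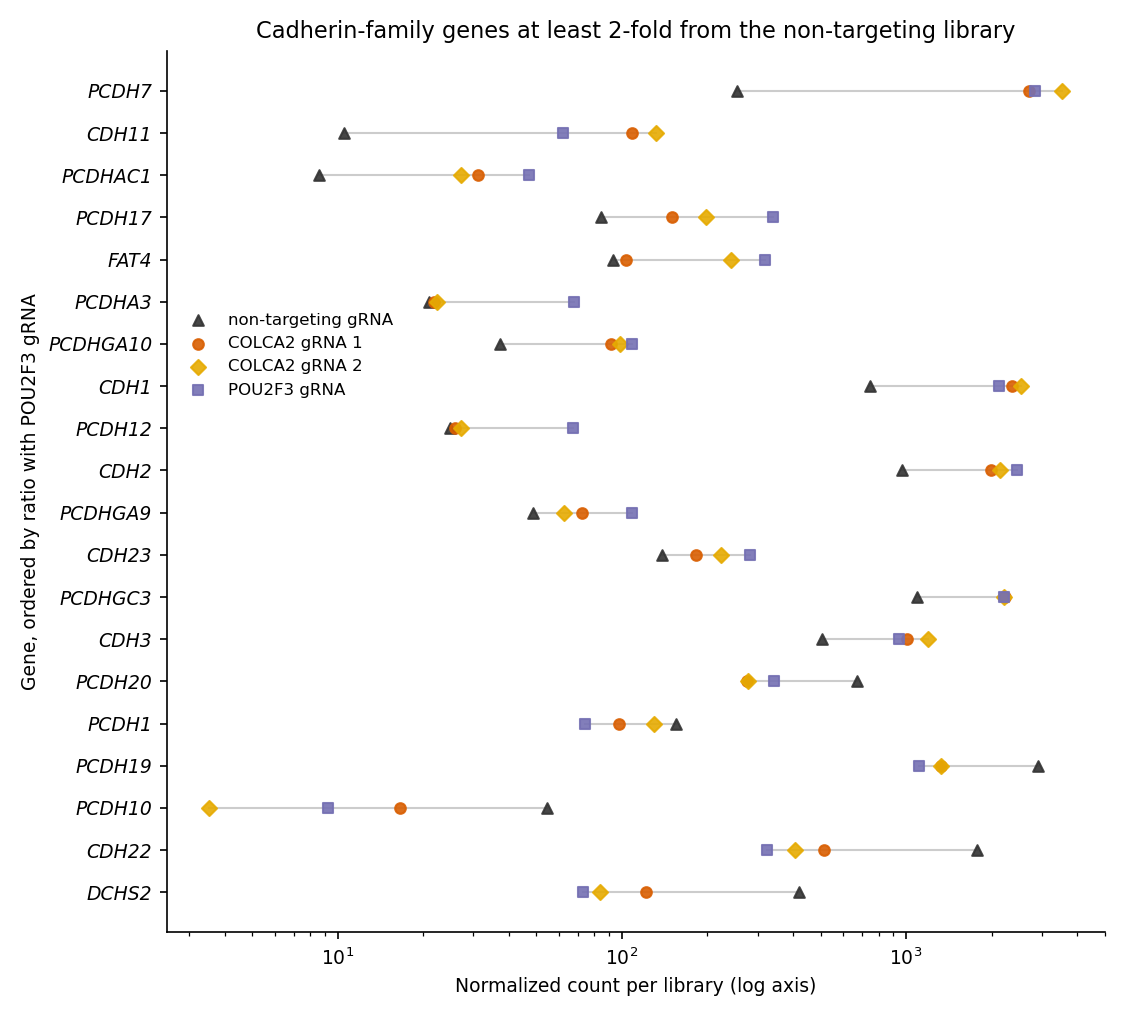
Normalized count (log axis) of the 20 members at least 2-fold from the non-targeting library with the POU2F3 guide or with both COLCA2 guides, with 1 symbol per library. The non-targeting symbol lies at 1 end of every row, and PCDH7 spans the range from 255 to 3543.

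As an alternative the reads recovered from the normalized counts were tested by edgeR's quasi-likelihood method. Its only residual degree of freedom comes from the pair of COLCA2 guides, so it compares these libraries with a borrowed spread. At a Benjamini-Hochberg adjusted p of 0.05 it called 9 members higher and 5 lower with the POU2F3 guide, where it called 8.45% and 3.98% of all genes. With the COLCA2 guides it called 8 higher and 7 lower, where it called 11.4% and 7.51% of all genes. Of the 18 members 2-fold apart with the POU2F3 guide it called 11, and the other 7 were CDH23, FAT4, PCDH1, PCDH10, PCDH12, PCDHA3 and PCDHGA9. Of the 13 members apart with both COLCA2 guides it also called 11, and the others were PCDH10 and PCDHAC1. It called 3 members that were less than 2-fold apart with the POU2F3 guide (CDH3, FAT3 and PCDH20), and 4 with the COLCA2 guides (DCHS1, FAT1, FAT3 and PCDH17).

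The epithelial and the neural type I cadherin were both higher after either target. CDH1 (E-cadherin) had a normalized count of 747 in the control, 2126 with the POU2F3 guide and 2351 and 2537 with COLCA2 gRNA 1 and 2. The 3 targeted libraries thus lay close together, 2.85, 3.15 and 3.40 times the control, and the mean log2 ratio with the COLCA2 guides was 1.71 ± 0.077 (SD, n = 2). CDH2 (N-cadherin) was at 965 in the control, 2467 with the POU2F3 guide and 1997 and 2143 with the COLCA2 guides. It was 2.56 times the control with the POU2F3 guide, with a log2 interval of 1.25 to 1.46, and its mean log2 ratio with the COLCA2 guides was 1.10 ± 0.072 (SD, n = 2). The normalized count of CDH2 divided by that of CDH1 was 1.29 in the control, 1.16 with the POU2F3 guide and 0.849 and 0.845 with the COLCA2 guides. The transcripts of these genes therefore did not move in opposite directions, and their balance differed between the targets by more than between the COLCA2 guides. Of 3 epithelial markers KRT8 and KRT18 were higher in every targeted library, as CDH1 was, and EPCAM was lower in every one. The summed normalized count of the list was 11335 in the control, 23694 with the POU2F3 guide and 30450 and 34570 with the COLCA2 guides. The part of these markers in the CDH1 result was not tested.

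CDH3 (P-cadherin) lies on chromosome 16 at 68636189 to 68722616 (GRCh38, GENCODE release 29), and CDH1 begins 14608 bases further on, at 68737225, on the same strand. Its normalized count was 505 in the control, 944 with the POU2F3 guide and 1012 and 1197 with the COLCA2 guides. CDH3 was called with the COLCA2 guides and came just short with the POU2F3 guide, at a log2 ratio of 0.90 against 1.0 and 1.24. These 3 were the only type I genes past the minimum. CDH15 (M-cadherin, of muscle) had between 7 and 20 reads per library, and CDH4 (R-cadherin) had at most 5.

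Among the 13 type II cadherins, whose members mark particular neurons and mesenchymal cells, 8 passed the minimum and 1 was called in each direction. CDH11 is the cadherin of osteoblasts and fibroblasts. It had a normalized count of 10.5 in the control, from 11 reads, and of 62.1 with the POU2F3 guide, 109 with COLCA2 gRNA 1 and 132 with COLCA2 gRNA 2. CDH11 was 5.91 times the control with the POU2F3 guide, with a wide log2 interval of 1.64 to 3.63, and its mean log2 ratio with the COLCA2 guides was 3.39 ± 0.19 (SD, n = 2). All 5 fibroblast markers passed the minimum. Their summed normalized count was 1257 in the control, 1572 with the POU2F3 guide and 2052 and 1753 with the COLCA2 guides. COL3A1, LUM and PDGFRB were higher in every targeted library, with COL3A1 going from 47.7 to between 317 and 412. COL1A1 stayed between 1002 and 1186, and DCN between 34.2 and 61.2. The part of these markers in the CDH11 result was not tested.

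CDH22, a type II cadherin of the brain and pituitary, was the third most abundant member per length in the control. Its normalized count was 1775 there, 325 with the POU2F3 guide and 513 and 408 with COLCA2 gRNA 1 and 2. The control thus held 5.47 times the level of the POU2F3 library and 3.46 and 4.35 times those of the COLCA2 libraries. By normalized count per kilobase of the longest transcript its rank among members went from 3 to 12 with the POU2F3 guide and to 11 with either COLCA2 guide. CDH24, the most abundant member per length in every library, did not follow. CDH24 had normalized counts of 7319 in the control, 6585 with the POU2F3 guide and 7240 and 6856 with the COLCA2 guides. The other 6 type II genes past the minimum were CDH6, CDH7, CDH8, CDH12 and CDH18 beside CDH24, and none of them was called.

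CDH23, the tip-link cadherin of hair cells, was called with the POU2F3 guide only. Its normalized counts were 138 in the control, 282 with the POU2F3 guide and 182 and 222 with the COLCA2 guides, so it lay close to the 2-fold line, and with equal totals its log2 ratio with the POU2F3 guide was 0.99. CDHR2 and CDHR5 join the tips of neighbouring microvilli, the apical protrusions that are large in tuft cells. CDHR2 had a normalized count of 71.6 in the control and lower ones of 38.6 with the POU2F3 guide and 43.5 and 32.9 with the COLCA2 guides. The log2 ratio of CDHR2 was -0.87 with the POU2F3 guide and -0.90 ± 0.28 (SD, n = 2) with the COLCA2 guides, short of 2-fold. CDHR5 had between 1 and 10 reads. Of the proteins that assemble with this pair, ANKS4B was at 92.6 in the control and between 51.8 and 63.5 in the others, CALML4 was at 87.3 to 138, and USH1C and MYO7B were below the minimum. CDHR1, of photoreceptors, CDHR3, of ciliated airway cells, and CDHR4 passed the minimum and were not called.

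**Figure D2:**
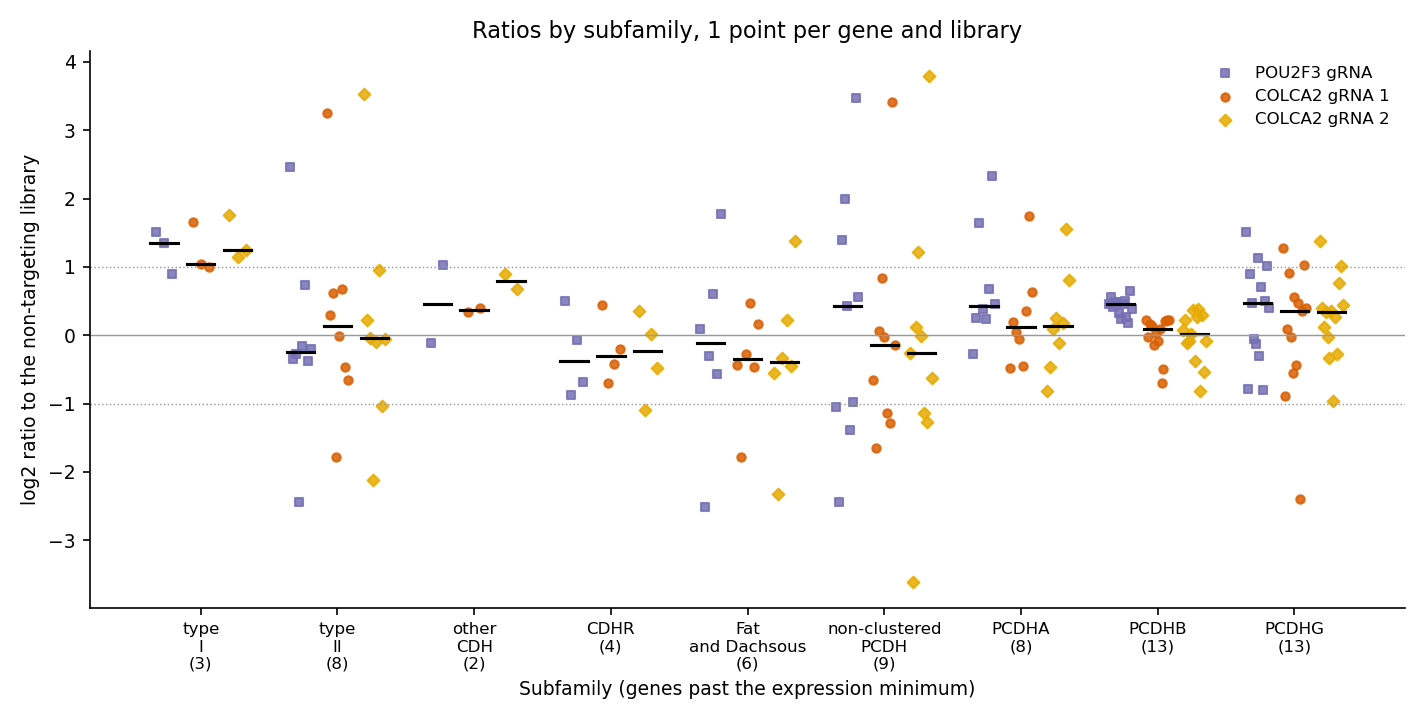
Log2 ratio to the non-targeting library for each of the 66 members past the minimum, by subfamily (number of genes in brackets), with 1 point per gene and library and a black bar at the median. Dotted lines mark 2-fold, the 3 type I genes lie between 0.90 and 1.76, and the 13 PCDHB genes with the POU2F3 guide lie between 0.18 and 0.65.

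Of the 6 giant cadherins only DCHS2 and FAT4 were called at 2-fold with at least 1 target. FAT1, an atypical cadherin with tumour suppressor roles, was the member with the most reads. Its normalized count was 15981 in the control, 12880 with the POU2F3 guide and 13274 and 12734 with the COLCA2 guides, a log2 ratio of -0.31 and of -0.30 ± 0.042 (SD, n = 2). FAT1 made up 35.2% of the summed normalized count of all members in the control and between 27.4% and 29.7% in the others. FAT3 went from 1655 to 1121 with the POU2F3 guide and to 1195 and 1211 with the COLCA2 guides, and FAT2 stayed between 40.1 and 61.3. None of these 3 was called at 2-fold, although FAT1 and FAT3 were lower in every targeted library. The edgeR calls of FAT1 and FAT3 are given above.

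DCHS2, a Dachsous paralogue and ligand-type partner of Fat proteins, had a normalized count of 421 in the control, 73.0 with the POU2F3 guide and 121 and 83.5 with the COLCA2 guides. It was lower in every targeted library, by 2.51 on the log2 scale with the POU2F3 guide and by 2.05 ± 0.38 (SD, n = 2) with the COLCA2 guides, where the ratios were -1.79 and -2.32. DCHS1, the main ligand of FAT4, was at 4749 in the control, 5070.5 with the POU2F3 guide and 3498 and 3234 with the COLCA2 guides. DCHS1 thus sat with the control in the POU2F3 library and below it in both COLCA2 libraries, less than 2-fold apart. FAT4 had normalized counts of 92.6 in the control, 318 with the POU2F3 guide, 104 with COLCA2 gRNA 1 and 242 with COLCA2 gRNA 2. Since 1 COLCA2 library matched the control and the other did not, FAT4 was called with the POU2F3 guide only and its mean log2 ratio with COLCA2 was 0.77 ± 0.86 (SD, n = 2). FJX1, the four-jointed homologue of a kinase that tunes Fat and Dachsous binding, went from 697 to 1421 with the POU2F3 guide and to 1320 and 1276 with the COLCA2 guides.

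The non-clustered protocadherins included PCDH7, the largest rise in the family, and both higher and lower genes. Of the 9 past the minimum 7 were called with at least 1 target, where 1669 of all 14940 genes were. PCDH7, a protocadherin known to promote growth signalling in lung tumours, lies on chromosome 4 at 30720415 to 31146805. It had a normalized count of 255 in the control, 2834 with the POU2F3 guide, 2714 with COLCA2 gRNA 1 and 3543 with COLCA2 gRNA 2. PCDH7 was 11.1, 10.6 and 13.9 times the control, the largest rise among the 66 members in each targeted library, and its mean log2 ratio with the COLCA2 guides was 3.60 ± 0.27 (SD, n = 2). PCDH17 was at 84.0 in the control, 339 with the POU2F3 guide and 150 and 198 with the COLCA2 guides. It was 4.04 times the control with the POU2F3 guide and 1.79 and 2.35 times with the COLCA2 guides, of which only gRNA 2 passed 2-fold. PCDH12, an endothelial and placental protocadherin, was at 24.8 in the control, 67.1 with the POU2F3 guide and 25.9 and 27.05 with the COLCA2 guides, so only the POU2F3 library stood apart. Of the endothelial markers 2 of 4 passed the minimum, KDR was at 0, and the sum of the 4 was 65.9 in the control, 47.8 with the POU2F3 guide and 41.5 and 52.9 with the COLCA2 guides.

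PCDH19, the protocadherin mutated in an X-linked epilepsy, was the most abundant of those that were lower. Its normalized count was 2925 in the control, 1114 with the POU2F3 guide and 1329 and 1327 with the COLCA2 guides. The log2 ratio of PCDH19 was -1.39 with the POU2F3 guide and -1.14 ± 0.0020 (SD, n = 2) with the COLCA2 guides, which differed from each other by less than counting error. PCDH20 was at 670 in the control, 342 with the POU2F3 guide and 276 and 278 with the COLCA2 guides. It was called with both COLCA2 guides, at a mean log2 ratio of -1.27, and came just short with the POU2F3 guide at -0.97, which equal totals moved to -1.005. PCDH10, often silenced by methylation in tumours, was at 54.4 in the control, 9.23 with the POU2F3 guide and 16.6 and 3.53 with the COLCA2 guides. The last value rests on 3 reads and its log2 ratio has an interval of -6.27 to -2.33. PCDH1, an airway epithelial protocadherin, was at 155 in the control, 73.9 with the POU2F3 guide and 97.5 and 129 with the COLCA2 guides, and was called with the POU2F3 guide only. PCDH9 and PCDH18 were not called with either target.

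Promoters are shown for 3 of these genes, chosen after their values were seen: PCDH7, the largest rise, PCDHGC3, the most abundant clustered gene called higher, and PCDH19, the most abundant protocadherin called lower. The bases lie before the RefSeq start and outside the gene as GENCODE release 29 draws it (GRCh38.p14, 5′ to 3′ on the strand of the gene), and capitals mark CCAAT boxes (CCAAT) and GC boxes (GGGCGG) on either strand.
PCDH7, chr4:30720119-30720368, plus strand: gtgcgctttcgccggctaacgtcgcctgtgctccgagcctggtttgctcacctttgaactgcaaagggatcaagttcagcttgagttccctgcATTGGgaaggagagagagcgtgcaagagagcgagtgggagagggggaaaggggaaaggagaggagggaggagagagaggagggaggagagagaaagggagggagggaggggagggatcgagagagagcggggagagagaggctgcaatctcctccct
PCDHGC3, chr5:141475716-141475946, plus strand: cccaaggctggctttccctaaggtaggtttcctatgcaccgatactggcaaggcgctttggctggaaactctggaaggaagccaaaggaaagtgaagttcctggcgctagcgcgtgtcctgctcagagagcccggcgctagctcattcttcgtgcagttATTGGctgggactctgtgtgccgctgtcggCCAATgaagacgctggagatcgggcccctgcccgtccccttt
PCDH19, chrX:100410274-100410523, minus strand: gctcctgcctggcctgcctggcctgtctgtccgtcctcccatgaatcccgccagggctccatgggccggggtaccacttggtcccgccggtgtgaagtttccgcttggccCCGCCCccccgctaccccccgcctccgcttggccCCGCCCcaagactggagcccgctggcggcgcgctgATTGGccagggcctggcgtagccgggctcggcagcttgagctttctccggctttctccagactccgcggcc
PCDH7 has 1 CCAAT box and a long purine-rich stretch before the start, PCDHGC3 has 2 CCAAT boxes, and PCDH19 has 1 CCAAT box and 2 GC boxes. The base composition also differed, with 59.6% G and C in the PCDH7 window, 58.4% in that of PCDHGC3 and 72% in that of PCDH19. The octamer ATGCAAAT, the site that POU2F3 and its relatives bind, was on neither strand of these windows.

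Over all 250-base windows before a RefSeq start, 75 members matched, some with several starts, which gave 94 windows. The octamer was in 1 of the 94, that of PCDHB1, and in 1.63% of 35116 windows of all genes. CCAAT boxes were in 38.3% of the member windows and 32.0% of all. GC boxes were in 13.8% of the member windows and 42.6% of all, and outside the clusters in 28.6% of 42. The E-box CAGGTG, bound by Snail and ZEB proteins, was in 9.57% of the member windows and 17.5% of all. None of these motifs overlapped another in the 3 sequences shown. Members without a window were not searched, and no match was listed for CDH1. Whether CDH1 had a window is not given here, so its promoter cannot be judged from these shares. A match describes the letters only, and binding was not measured.

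The same gene led each protocadherin cluster in all 4 libraries, and single clustered genes were higher after targeting. The 3 clusters lie side by side on chromosome 5, from 140786136 (PCDHA1) to 141512981 (the end of PCDHGA1). The PCDHA genes, and separately the PCDHG genes, each splice their own first exon to 3 constant exons, so reads in the constant exons cannot be assigned to 1 gene and the split between genes is uncertain. PCDHB genes share no exon but resemble each other. Of 54 clustered members 34 passed the minimum, 5 of them were higher with the POU2F3 guide (background 6.73%) and 3 with both COLCA2 guides (background 5.79%). None was lower, where the backgrounds of 3.05% and 2.02% are also low. PCDHA4 took 43.8% of the summed PCDHA level in the control, 42.2% with the POU2F3 guide and 40.2% and 46.3% with the COLCA2 guides. PCDHB2 took between 63.2% and 66.2% of the PCDHB sum. PCDHGC3 took 59.1% of the PCDHG sum in the control, 67.0% with the POU2F3 guide and 72.2% and 72.1% with the COLCA2 guides.

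**Figure D3:**
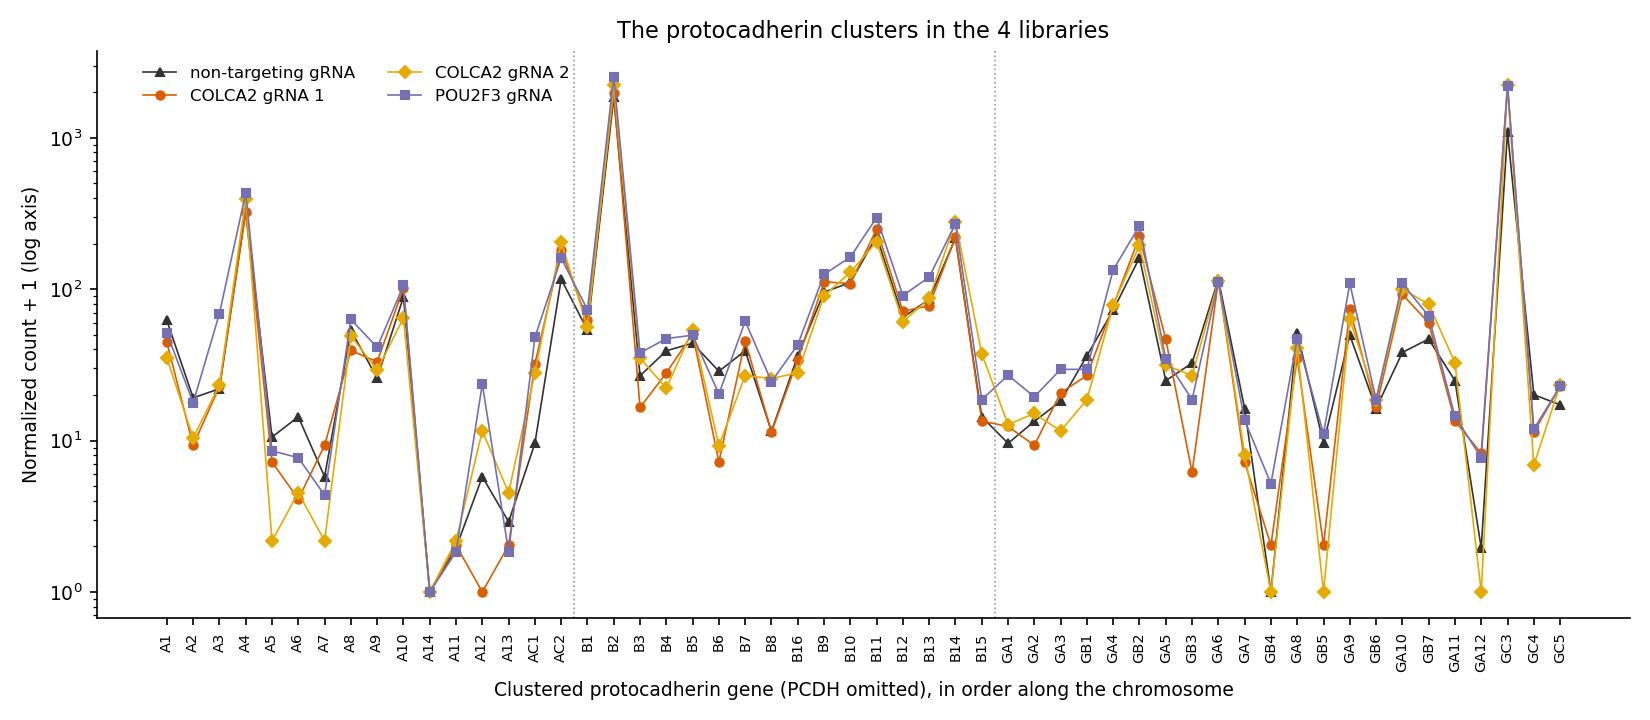
Normalized count + 1 (log axis) of the 54 clustered protocadherins in their order along the chromosome, with 1 line per library and dotted lines between the PCDHA, PCDHB and PCDHG clusters. The 4 lines follow the same peaks, at PCDHA4, PCDHB2 and PCDHGC3, and the non-targeting line lies below the others at PCDHGC3 (1093 against 2205 to 2234) and PCDHAC1.

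PCDHGC3, a C-type gene expressed in most neurons rather than by choice, had a normalized count of 1093 in the control, 2205 with the POU2F3 guide and 2234 and 2218 with the COLCA2 guides. The 3 targeted libraries differed from each other by less than counting error, and each held slightly more than 2 times the control. The log2 ratios of PCDHGC3 were 1.01, 1.03 and 1.02, and with equal totals they were 0.98 with the POU2F3 guide and 0.96 on average with the COLCA2 guides, below the line. PCDHAC1, another C-type gene, was at 8.59 in the control, from 9 reads, 47.0 with the POU2F3 guide and 31.1 and 27.05 with the COLCA2 guides. PCDHGA10 was at 37.2 in the control, 108 with the POU2F3 guide and 91.2 and 98.8 with the COLCA2 guides. PCDHA3 and PCDHGA9 were called with the POU2F3 guide only. PCDHA3 had 67.99 in that library and between 21.0 and 22.3 in the other 3, and PCDHGA9 had 108 against 48.7 in the control.

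Summed over its genes, which removes the uncertain split, the PCDHA cluster was at 756 in the control, 1022 with the POU2F3 guide and 796 and 851 with the COLCA2 guides. The PCDHB sum was 2921, 3966, 3067 and 3355 in the same order, and the PCDHG sum was 1852, 3289, 3095 and 3078. The PCDHG sum was thus higher in all 3 targeted libraries, by 0.83 on the log2 scale with the POU2F3 guide and by 0.74 ± 0.0056 (SD, n = 2) with the COLCA2 guides. Without PCDHGC3 the PCDHG ratios were 0.51 with the POU2F3 guide and 0.18 with either COLCA2 guide. Unlike the full sum, these ratios depend on the uncertain split between PCDHGC3 and the other genes. The PCDHA and PCDHB ratios were 0.43 and 0.44 with the POU2F3 guide, and 0.12 ± 0.068 and 0.13 ± 0.092 (SD, n = 2) with the COLCA2 guides. All 13 PCDHB genes past the minimum were above the control with the POU2F3 guide, by 0.18 to 0.65, although none was called, where 49.6% of all genes were above it. With COLCA2 gRNA 1 and 2, 8 and 7 of the 13 were above.

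The architectural proteins that loop enhancers to clustered promoters were less than 2-fold from the control in all 3 targeted libraries, for each of the 8 genes listed. edgeR called 1 of the 8, CTCF, lower with the COLCA2 guides (mean log2 ratio -0.45, Benjamini-Hochberg adjusted p = 0.030) and none with the POU2F3 guide. CTCF, which binds at the chosen promoters, was at 2441 in the control, 1805 with the POU2F3 guide and 1881 and 1704 with the COLCA2 guides. The cohesin subunits RAD21, SMC1A, SMC3, STAG1 and STAG2, SMCHD1, a silencer of the clusters, and WIZ had log2 ratios between -0.33 and 0.20.

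The POU2F3 library was also set against each COLCA2 library, which leaves out the control. By 2-fold from both guides 2 of the 66 members were higher with the POU2F3 guide (background 0.442%) and 0 were lower (background 0.924%). The 2 were PCDHA3 and PCDH12. PCDHA3 had log2 ratios of 1.60 and 1.56 to COLCA2 gRNA 1 and 2, from 81 reads against 21 and 19. PCDH12 had 1.34 and 1.28, from 80 reads against 25 and 23. edgeR's quasi-likelihood test called 0 members at a Benjamini-Hochberg adjusted p of 0.05 in this comparison, where it called 0.234% of all genes lower and 0.107% higher. Against gRNA 2 alone 6 members were higher and 3 lower, and against gRNA 1 alone 6 were higher, FAT4 and PCDH17 among them. The share of all genes past 2-fold against a single guide was not computed, so these counts have no background. CDH11 had the lowest mean ratio, at -0.80 and -1.07. Of the 34 clustered members 24 (70.6%) were above both COLCA2 libraries, where 35.6% of all genes were, and of the 32 members outside the clusters 12 (37.5%) were. Constant-exon reads cannot be assigned to 1 PCDHA or PCDHG gene, so the genes of these clusters are not independent. All of these ratios also share the 1 POU2F3 library. The COLCA2 guides differed 2-fold at 5 members, FAT4, PCDH10, PCDHB3, PCDHGA11 and PCDHGB3, where 2.22% of all genes differed, and apart from FAT4 none of these had more than 29 reads with either COLCA2 guide.

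**Figure D4:**
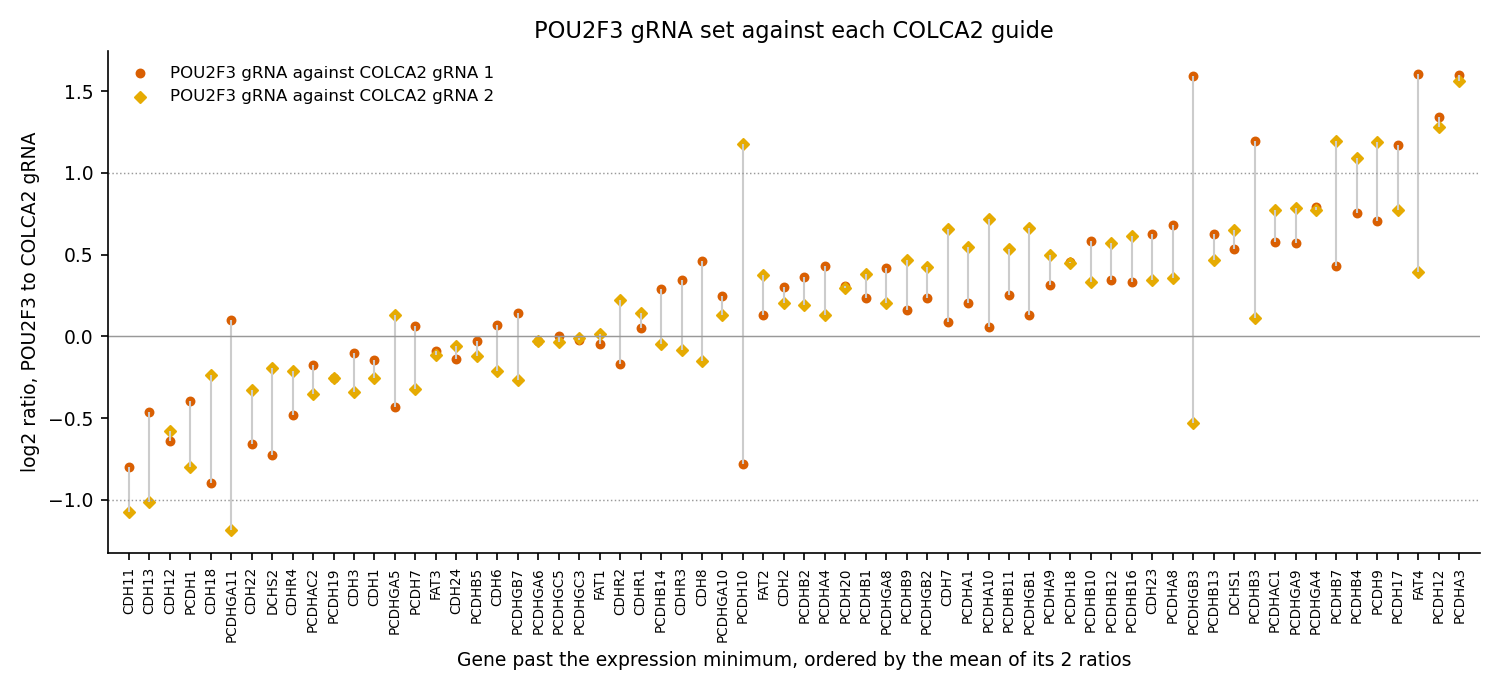
Log2 ratio of the POU2F3 library to COLCA2 gRNA 1 (circles) and gRNA 2 (diamonds) for the 66 members past the minimum, ordered by the mean, with a grey line joining the pair and dotted lines at 2-fold. PCDH12 and PCDHA3 at the right have both symbols above 1, and the long grey lines of PCDHGB3 and PCDH10 mark genes on which the guides disagreed.

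Among the partners of the cadherins VCL, NECTIN4 and SNAI2 were higher and CTNNA2 was lower with either target. Of 37 partner genes 34 passed the minimum, 4 were higher and 1 lower with the POU2F3 guide, and 3 were higher and 1 lower with both COLCA2 guides, beside the same backgrounds as above. edgeR called 8 higher and 1 lower with the POU2F3 guide, and 7 higher and 3 lower with the COLCA2 guides, and CTNNA1, NECTIN1 and NECTIN2 were higher by it with both targets at less than 2-fold. The partner that edgeR called lower with the POU2F3 guide was TWIST1, and CTNNA2 was not called there. With the COLCA2 guides it called CTNNA2, CTCF and TWIST1 lower. These edgeR counts stand beside the edgeR shares of all genes given above for each target and direction. CTNNB1 (β-catenin) was at 10459 in the control and between 11305 and 11985 in the others. CTNNA1 (α-catenin) was at 9310 in the control and between 12749 and 13372 in the others, a log2 ratio of 0.52 with the POU2F3 guide and of 0.45 and 0.48 with the COLCA2 guides. The p120-catenin gene CTNND1, its relatives CTNND2 and ARVCF, and JUP (plakoglobin) had log2 ratios between -0.49 and 0.15. VCL (vinculin), which reinforces junctions under tension, was at 2789 in the control, 7912 with the POU2F3 guide and 8857 and 9364 with the COLCA2 guides. CTNNA2, the neural α-catenin, was lower, at 47.7 in the control, 13.4 with the POU2F3 guide and 16.6 and 9.41 with the COLCA2 guides. It lay below the minimum in each targeted library and passed only through the control. CTNNA3, the α-catenin of heart and testis, was at 0.839 or less in every library.

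Nectins, immunoglobulin-type adhesion proteins that start the junctions cadherins complete, included the largest rise of the partner list. NECTIN4, an epithelial nectin, was at 18.1 in the control, 143 with the POU2F3 guide and 262 and 253 with the COLCA2 guides. Its control value, from 19 reads, lay below the minimum, so NECTIN4 passed only through the targeted libraries. NECTIN1 and NECTIN2 were higher by less than 2-fold, with log2 ratios of 0.57 to 0.95, and NECTIN3 was between -0.45 and 0.02.

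Of 5 repressors of CDH1, only SNAI2 (Slug) was called at 2-fold, and it was higher together with CDH1. It had a normalized count of 173 in the control, 534 with the POU2F3 guide and 421 and 426 with the COLCA2 guides. TWIST1, the most abundant of the 5, was at 4114 in the control. It was lower in every targeted library, between 2222 and 2396, with log2 ratios of -0.89 with the POU2F3 guide and -0.78 and -0.87 with the COLCA2 guides. The edgeR calls of TWIST1 are given above. ZEB1 was at 19.1 in the control, 28.5 with the POU2F3 guide and 33.2 and 51.7 with the COLCA2 guides. SNAI1 was at 35.3 in the control, 17.6 with the POU2F3 guide and 40.4 and 32.9 with the COLCA2 guides, and ZEB2 was at 982 in the control, 945 with the POU2F3 guide and 562 and 911 with the COLCA2 guides. The 5 genes thus went in different directions.

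**Figure D5:**
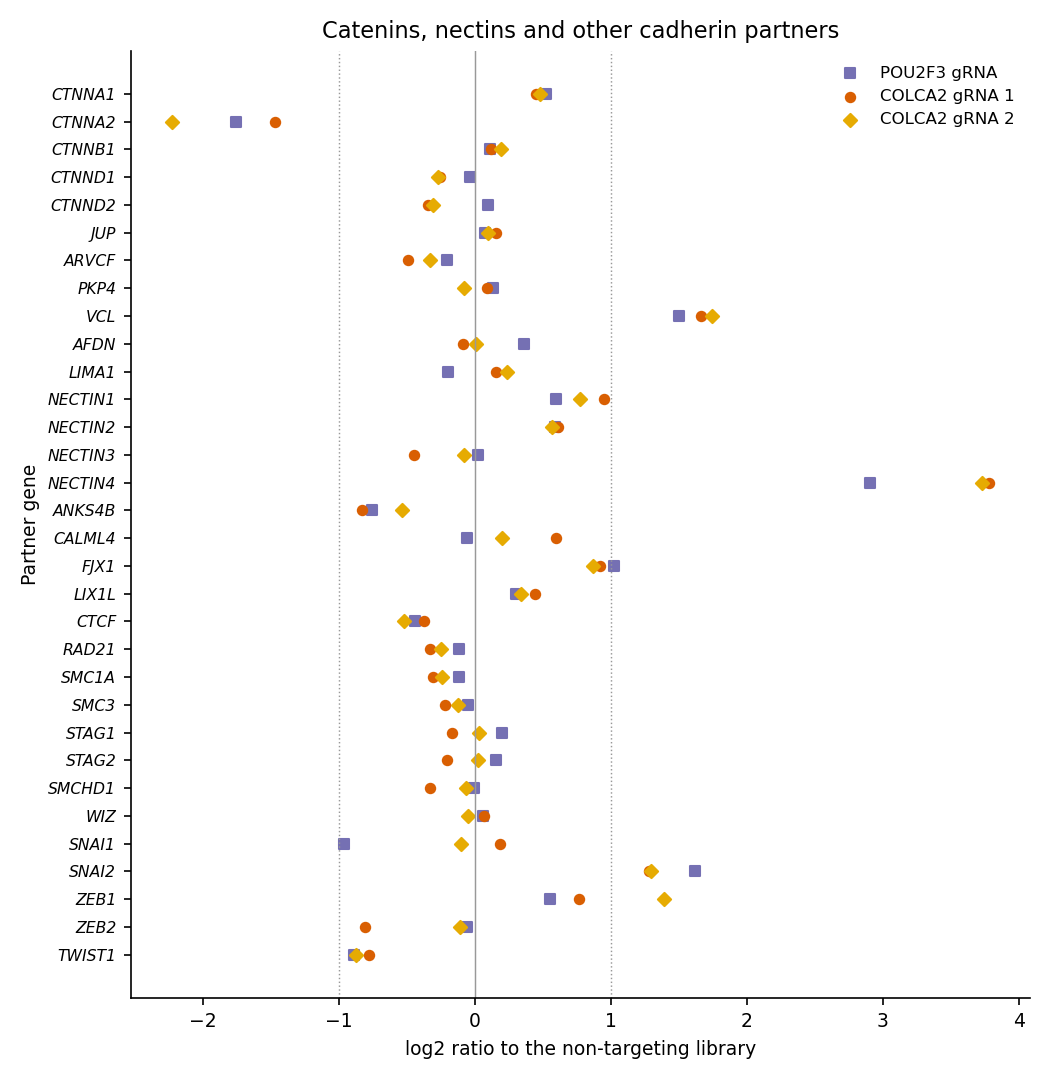
Log2 ratio to the non-targeting library for 32 of the 34 partner genes past the minimum, with 1 symbol per targeted library and dotted lines at 2-fold. VCL, NECTIN4 and SNAI2 lie to the right of 2-fold in all 3 libraries and CTNNA2 to the left, while the catenins CTNNB1, CTNND1 and JUP lie between -0.27 and 0.20.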

How the data were processed

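Per the file headers, the authors deposited normalized counts per gene, a linear signal, and per the submitters' processing notes Salmon and DESeq2 were used with hg38. Annotation, versions and strand use are not given in the sources used here. Dividing each library's values by their smallest step gave whole numbers for 100% of them (tolerance 0.001), and these were taken as reads. Rows of the same symbol were summed, which concerned CDH4 and CDHR5 among the members. Genes with a mean of at least 20 were kept, the pseudocount was 1, and calls needed a 2-fold ratio, with both guides for COLCA2. Named genes are called members, type I, microvillus, Fat and Dachsous members, the 5 most abundant per length, members 2-fold apart between targets or guides, catenins and called partners; other genes were named after their values were seen. The members and lists were chosen with earlier results of these data known. Alternatives were other minimums, pseudocounts, scalings and folds, each guide left out, 1 row per symbol, omission of PCDHA and PCDHG, and edgeR 4.0.16 (TMM, quasi-likelihood, Benjamini-Hochberg; R 4.3.3) on 14940 genes. Scripts were tested on simulated data. Some genes of the marker and partner lists are counted but not reported singly here. Positions and lengths come from GENCODE release 29 by identifier (98 of 99 members), promoters from RefSeq.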

Additional observations from a re-analysis of the deposited data

How the results depend on the processing

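Without COLCA2 gRNA 1 the COLCA2 log2 ratio of PCDHB3 went from -0.15 to 0.39 and that of PCDHGA11 from -0.25 to 0.40. Neither gene was called, and no other sign changed among the results and alternatives run. Of the values of single named members 391 moved by less than the SD between the COLCA2 guides and 29 by more. No paired analysis was possible because nothing in the labels links libraries of different conditions. With only 1 control and 1 POU2F3 library the depth of members under about 30 reads limits what can be read from them.

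Without a minimum 23 members were higher with POU2F3 and 10 lower with COLCA2, 8 were higher with POU2F3 than with both COLCA2 guides, 18 differed between the guides, and the medians were 0.39 for POU2F3 and 0 for COLCA2. With a minimum of 100 the counts were 7 higher with POU2F3, 5 higher with COLCA2, 0 higher in the direct comparison and 1 between the guides, with medians of 0.42 and 0.099. A lower minimum admits more members, and members with fewer reads, and the part of this in the counts was not tested. At 4-fold, 3 members were lower and 3 higher with POU2F3, 0 lower and 2 higher with COLCA2, 0 higher in the direct comparison, and 1 differed between the guides. Without PCDHA and PCDHG, 8 were higher with POU2F3, 5 with COLCA2 and 1 in the direct comparison, 3 differed between the guides, and the medians were 0.39 and 0.020. Equal totals gave 5 higher with COLCA2, medians of 0.38 and 0.0034, and summed ratios of 0.053 for PCDHA with COLCA2 and of 0.79 and 0.67 for PCDHG with POU2F3 and COLCA2. It moved the median of all genes by -0.034 and -0.069. TMM gave medians of 0.42 and 0.072 and a PCDHG ratio of 0.84 with POU2F3. Pseudocounts of 0.1 and 10 gave medians of 0.42 and 0.37 for POU2F3 and of 0.072 and 0.057 for COLCA2, and 10 left 2 members apart between the guides. The edgeR test called 0 members higher with POU2F3 than with COLCA2. Leaving out a guide gave a COLCA2 median of 0.079 without gRNA 1 and 0.077 without gRNA 2, and in the direct comparison 0 to 3 lower and 6 higher members. The share of all genes was not computed for these direct counts, nor for any count under another minimum, fold, pseudocount or scaling. Those counts therefore have no background.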
